A study of Homo sapiens with 2 samples.

Results

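The 48 genes described here encode the signalling system of transforming growth factor beta (TGF-beta), activins and bone morphogenetic proteins (BMPs), together with GDF15, a distant relative of these ligands. They were chosen by name, as ligands, receptors, SMAD proteins, ID genes, antagonists and inhibitors, and found on the arrays through the RefSeq accessions of the probes. All 48 had a probe, out of 17240 genes that could be named on the arrays, and all 48 were measured, out of 16153 measured genes. The measurements compare RNA of SKOV3, a human ovarian adenocarcinoma cell line, from the clone cl-sh3 with RNA from a control clone. The cl-sh3 cells carried a RUNX2 short hairpin RNA in the lentiviral vector pLKO.1-puro, and the mock-transfected control cells carried a scrambled sequence in the same vector. Both were selected with puromycin, and each group was 1 clone, so the effects of RUNX2 loss and other differences between clones cannot be told apart. The RNAs were hybridized together on Agilent 2-colour arrays, with cl-sh3 in Cy5 in hybridization 1 and in Cy3 in hybridization 2. Since these were 2 hybridizations of 1 RNA pair, they were 1 replicate, no test was possible, and the spread between them is technical.

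Ligands of this family bind a complex of type II and type I receptor kinases on the cell surface. TGF-beta and activin receptors phosphorylate SMAD2 and SMAD3, while BMP receptors phosphorylate SMAD1, SMAD5 and SMAD9, and both sets enter the nucleus with SMAD4. RUNX proteins are known partners of these SMADs on DNA. GDF15 is secreted under cellular stress and by many carcinomas, and its known receptor is GFRAL, which signals with RET and not through SMADs.

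Of the 48 genes, 3 were lower in cl-sh3 and none was higher when a difference of 1.5-fold or more, of the same direction, was required of each hybridization. The 3 genes were GDF15, BAMBI and ID4. GDF15 alone passed 2-fold, being 2.94-fold lower by the mean of both hybridizations. BAMBI, a decoy receptor for the family, was 1.83-fold lower, and ID4, which encodes an inhibitor of basic helix-loop-helix transcription factors, was 1.72-fold lower. The core of the pathway, namely the TGF-beta and BMP receptors and all SMADs, stayed within 1.5-fold in at least 1 hybridization by the brightest probe of each gene.

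Each gene was represented by its brightest probe, and every ratio is the log2 of the normalized intensity of cl-sh3 over that of the control clone. At the level of 2-fold, 1 of 48 genes was lower, against 84 of all measured genes or 0.520%, and 0 of 48 were higher, against 22 or 0.136%. The 1.5-fold rule took in 3 lower genes of the 48, where 421 of all genes, or 2.61%, were lower. It took in 0 higher genes of the 48, where 259, or 1.60%, were higher. The 48 genes were chosen with earlier results of these data known, and the study had listed GDF15 from these arrays. These counts are thus no independent evidence that the 48 genes differ from all genes. Below 0 in both hybridizations were 19 of the 48 genes (39.6%), against 28.4% of all genes. Above 0 in both were 16 (33.3%), against 30.9%, and the signs of 13 genes differed between the hybridizations. The median log2 ratio of the 48 genes was 0.02, and that of all genes was 0.01. The signalling genes were spread around 0, with quartiles of -0.16 and 0.12, where all genes had -0.15 and 0.14. Between the hybridizations, the ratio of a signalling gene shifted by a median of 0.20 with a 95th percentile of 0.54, and that of any gene by 0.23 and 0.64. A mean near 0.2 was thus about as large as the usual gap between the hybridizations. That gap is a spread of single ratios and not the error of a mean.

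**Figure D1:**
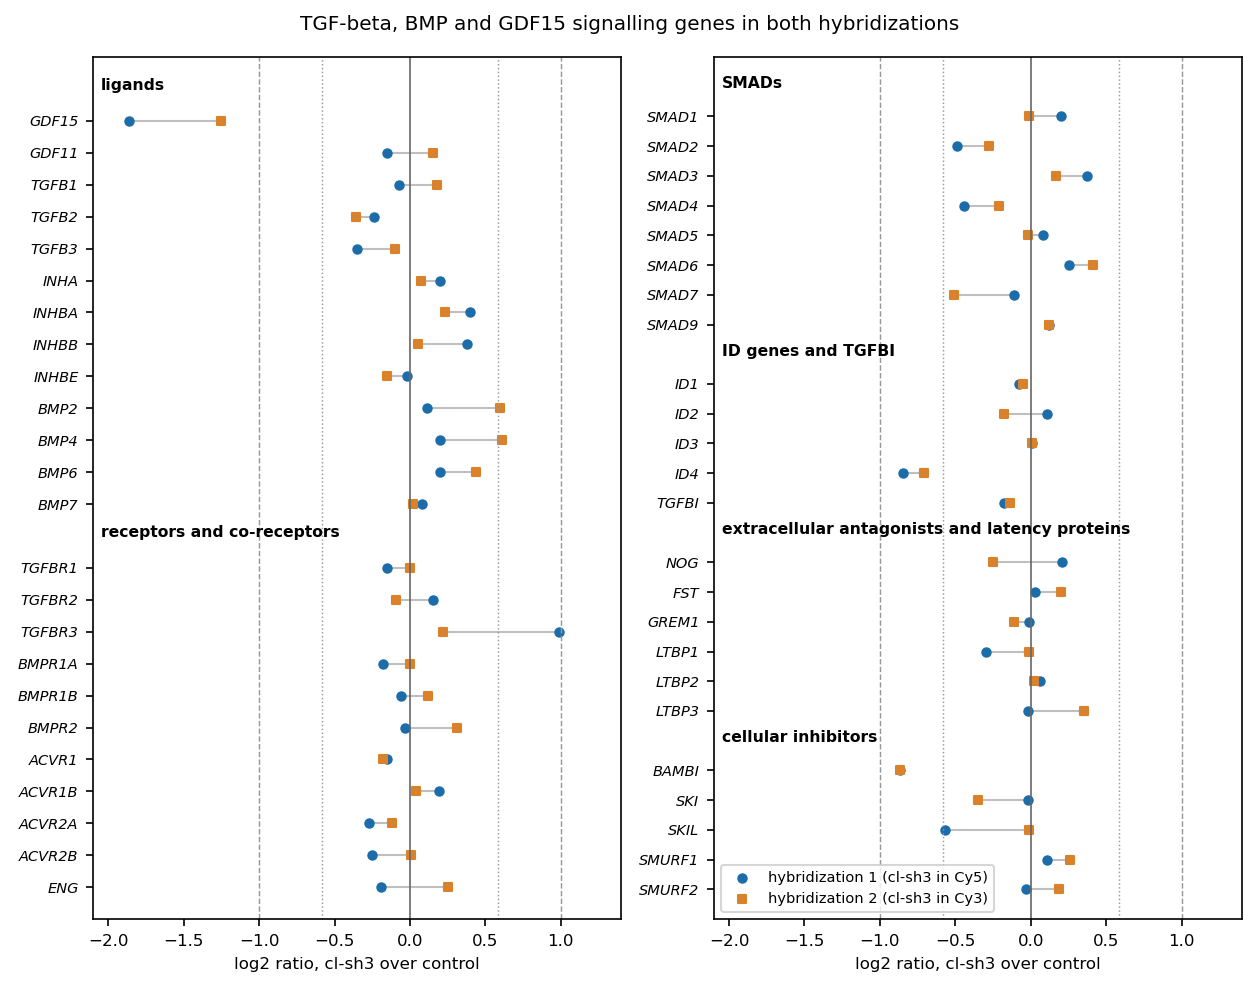
Log2 ratio of cl-sh3 over control for each of the 48 genes by role, as circles for hybridization 1 and squares for hybridization 2, with dotted lines at 1.5-fold and dashed lines at 2-fold. GDF15 lies beyond 2-fold in both hybridizations, BAMBI and ID4 lie beyond 1.5-fold in both, and most other genes lie close to 0.

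Each array had 45015 spots, of which 43376 were gene spots for 41000 probes, and no spot was saturated. Between 77.3% and 93.9% of the gene spots per channel carried the scanner software's flag for signal well above background, and the Cy5 channel of hybridization 2, which held the control RNA, had the lowest share. For 45 of the 48 genes both RNAs carried the flag in both hybridizations, and for BMP4, ENG and FST the control RNA lacked it in hybridization 2. The flag does not show that a gene is expressed. All 8 markers of epithelial and ovarian carcinoma cells carried it in both RNAs, with mean log2 ratios between -0.66 and 0.83, but so did 4 of 4 leukocyte markers and 2 of 3 endothelial markers. The targeted gene, RUNX2, was 3.18-fold lower by its brightest probe, with log2 ratios of -2.04 and -1.30, while a dimmer probe for that accession had 0.17 and -0.13 and the remaining RUNX2 probe had -0.29 and -0.17. In RNA of whole cultures, fewer cells that express a gene and less RNA per cell cannot be told apart.

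The promoters of the 3 lower genes are shown so that RUNX and SMAD motifs can be read in them. The sequences are RefSeq promoter windows of build GRCh38.p14, from 250 bases before the transcription start to 50 bases from it, 5′ to 3′ on the plus strand, which is the coding strand of each gene. They lie at chr19:18385908-18386207 for GDF15, chr10:28677271-28677570 for BAMBI and chr6:19837120-19837419 for ID4. Capitals mark the RUNX core TGTGGT and the SMAD1 and SMAD5 box GGCGCC.

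GDF15: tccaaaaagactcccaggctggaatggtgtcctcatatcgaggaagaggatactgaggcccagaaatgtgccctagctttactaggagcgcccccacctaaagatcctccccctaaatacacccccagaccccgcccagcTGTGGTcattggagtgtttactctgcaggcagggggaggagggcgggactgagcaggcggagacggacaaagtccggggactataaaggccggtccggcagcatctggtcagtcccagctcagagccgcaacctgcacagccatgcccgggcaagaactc

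BAMBI: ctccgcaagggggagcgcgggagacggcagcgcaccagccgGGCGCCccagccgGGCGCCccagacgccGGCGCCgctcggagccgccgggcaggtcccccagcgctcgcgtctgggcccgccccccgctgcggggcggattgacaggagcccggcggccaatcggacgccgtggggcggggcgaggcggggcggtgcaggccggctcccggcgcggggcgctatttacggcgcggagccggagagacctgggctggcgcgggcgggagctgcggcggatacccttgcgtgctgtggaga

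ID4: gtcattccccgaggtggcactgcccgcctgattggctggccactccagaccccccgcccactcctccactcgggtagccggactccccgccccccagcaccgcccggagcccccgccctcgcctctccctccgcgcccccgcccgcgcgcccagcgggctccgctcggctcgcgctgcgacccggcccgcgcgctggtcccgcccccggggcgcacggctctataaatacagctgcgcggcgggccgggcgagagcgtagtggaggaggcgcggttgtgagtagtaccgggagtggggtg

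Both strands were searched for each motif, and no marked motif overlapped another. The GDF15 window held 1 TGTGGT, at -110 from the start, and 1 CAGAC, the box of SMAD3 and SMAD4, at -125. The BAMBI window held 3 copies of GGCGCC, at -209, -196 and -181, and CAGAC at -189 and, on the minus strand, at -140. The ID4 window held CAGAC at -205 and none of the other motifs. Of 35116 promoter windows in the RefSeq table, 13.1% held TGTGGT, 19.2% held GGCGCC and 45.3% held CAGAC, so each is a common string. For 43 of the 48 genes the table gave 74 windows, of which 13 held TGTGGT, 18 held GGCGCC and 38 held CAGAC. The composite motif of ATF4 and C/EBP proteins, TGATGNAA, was in 3.62% of all windows and in 0 of the 74 windows. The cyclic AMP response core, TGACG, was in 24.6% of all windows and in 16 of the 74. These matches describe letters within the windows and say nothing of whether a factor binds there.

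Of the 13 ligand genes, GDF15 was lower and the other 12 did not pass 1.5-fold in both hybridizations. The GDF15 probe (accession NM_004864) read 31794 in the control and 8731 in cl-sh3 in hybridization 1. In hybridization 2 it read 24483 in the control and 10306 in cl-sh3. Both cl-sh3 readings were below both control readings, whichever dye was used. The log2 ratios were -1.86 and -1.25, with a mean of -1.56, and their difference of 0.62 was near the 95th percentile over all genes. By this mean, GDF15 ranked 28th from the lowest of 16153 genes, or within the lowest 0.173%.

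By their brightest probes, the BMP ligand genes had ratios above 0 in both hybridizations without passing the rule. Of all genes, 30.9% were above 0 in both. BMP2, which drives bone formation, had log2 ratios of 0.11 and 0.60, and BMP4, a ligand of early development, had 0.20 and 0.61. Both exceeded 1.5-fold in hybridization 2 but not in hybridization 1. The BMP4 readings were low, at 124 and 98 in the control and 142 and 150 in cl-sh3, and the lower control reading was not above background. BMP6 had 0.20 and 0.44, while BMP7, known for its part in kidney development, had 0.08 and 0.02. A dimmer kept BMP7 probe had -0.12 and 0.11.

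The activin and inhibin subunit genes also stayed within 1.5-fold. INHBA, which encodes the subunit of activin A, had log2 ratios of 0.40 and 0.23, from readings of 4173 and 4000 in the control and 5506 and 4678 in cl-sh3. All of its cl-sh3 readings were above its control readings, but by less than 1.5-fold. INHBB, for the subunit of activin B, had 0.38 and 0.05, and INHA, for the inhibin alpha subunit, had 0.20 and 0.07. INHBE, for the beta E subunit, had -0.02 and -0.15. The TGF-beta ligands themselves did not move together. TGFB1 had -0.07 and 0.18, TGFB2 had -0.24 and -0.36, and TGFB3 had -0.35 and -0.10. The brightest TGFB2 probe read 1425 and 1691 in the control and 1207 and 1319 in cl-sh3. That probe was thus lower with either dye, though by less than 1.5-fold. A dimmer TGFB2 probe had log2 ratios of -0.34 and 0.20, which differ in sign. GDF11, a ligand that signals through activin type II receptors, had -0.15 and 0.15. The median log2 ratio of the 13 ligand genes was 0.06, with 4 below 0 and 7 above 0 in both hybridizations.

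**Figure D2:**
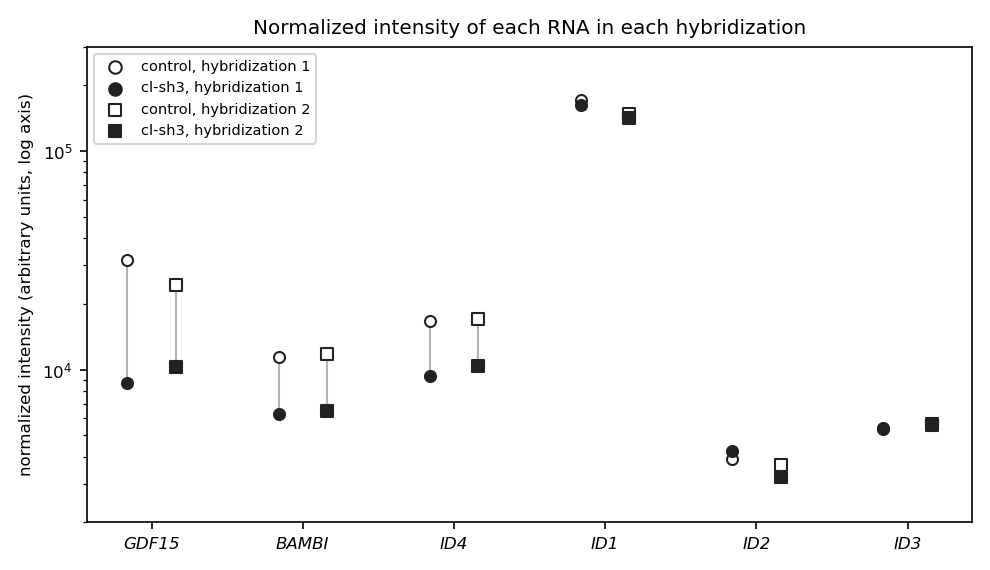
Normalized intensity in arbitrary units on a log axis for GDF15, BAMBI and the ID genes, with open symbols for the control clone, filled symbols for cl-sh3, circles for hybridization 1 and squares for hybridization 2. For GDF15, BAMBI and ID4 the filled symbols lie below the open ones in both hybridizations, whereas the symbols of ID1, ID2 and ID3 nearly coincide. Intensities were normalized between arrays with Aquantile, and levels can be compared within a gene only.

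None of the 11 receptor and co-receptor genes passed 1.5-fold in both hybridizations, and their median log2 ratio was 0.03. The type I receptor of TGF-beta, TGFBR1, had log2 ratios of -0.15 and 0.00, and the type II receptor, TGFBR2, had 0.15 and -0.09. The BMP type I receptors BMPR1A (-0.18 and 0.00) and BMPR1B (-0.06 and 0.12) and the type II receptor BMPR2 (-0.03 and 0.31) were likewise near 0. The activin receptor genes ACVR1, ACVR1B, ACVR2A and ACVR2B had mean log2 ratios between -0.20 and 0.12. By their brightest probes, the signalling receptors of both branches thus showed no difference of 1.5-fold in either hybridization. The dimmest BMPR1A probe did, at -1.10 and -0.67. Among the brightest probes, a larger ratio was read for TGFBR3, which encodes betaglycan, a co-receptor that presents TGF-beta2 and inhibin. Its probe was dim, at 161 in the control and 318 in cl-sh3 in hybridization 1, and at 222 and 259 in hybridization 2. The log2 ratios of 0.99 and 0.22 shared a sign but differed by 0.77, more than the 95th percentile of all genes, and only the first exceeded 1.5-fold. Endoglin (ENG), the co-receptor known from endothelial cells, had -0.19 and 0.25.

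By their brightest probes, all 8 SMAD genes stayed within 1.5-fold in both hybridizations, and their median log2 ratio was 0.06. The probes of SMAD2, SMAD3 and SMAD4 were printed in 10 spots each, so these genes could be read with their spot-to-spot error. For SMAD2, which carries the TGF-beta and activin signal, the spots averaged -0.49 ± 0.08 (SD, n = 10 spots) in hybridization 1 and -0.28 ± 0.09 (SD, n = 10 spots) in hybridization 2. All 20 spots were below 0. For SMAD4, the partner that all receptor-activated SMADs share, the spots averaged -0.44 ± 0.12 (SD, n = 9 spots) and -0.21 ± 0.09 (SD, n = 10 spots), and again every spot was below 0. SMAD3, whose protein shares the receptors of SMAD2, lay on the other side of 0, at 0.37 ± 0.16 and 0.17 ± 0.13 (SD, n = 10 spots each). In hybridization 2 its spots reached from -0.06 to 0.35. Every spot of these SMAD2 and SMAD4 probes thus read below the control, by less than 1.5-fold on average. The other SMAD2 probes, with 1 spot each, had log2 ratios of -0.79 and -0.42, -0.38 and 0.21, and -0.18 and 0.10, so 2 of them changed sign between the hybridizations. The means of the 3 genes shifted between the arrays by 0.19 to 0.24, about the median shift of all genes. Over the 264 probes printed 10 times, the median SD between spots was 0.12 in each hybridization. Spots of an array share the RNA and the labelling, so this SD holds no biological error.

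The brightest probes of the SMADs of the BMP branch had log2 ratios of 0.20 and -0.01 for SMAD1, 0.08 and -0.02 for SMAD5, and 0.12 in each hybridization for SMAD9. A dimmer SMAD1 probe had 0.54 and 0.10. The inhibitory SMADs, which the pathway itself induces as feedback, did not move together. SMAD6, known mainly as an inhibitor of BMP signals, had 0.25 and 0.41, and SMAD7, which blocks both branches, had -0.11 and -0.51. SMAD6 read 288 and 300 in the control and 341 and 399 in cl-sh3. SMAD7 read 2389 and 2447 in the control and 2219 and 1714 in cl-sh3. Each gene kept its direction in both hybridizations, and neither passed 1.5-fold.

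Among the 5 genes of proteins that inhibit the pathway at the membrane or within the cell, BAMBI was lower and the other 4 did not pass the rule. BAMBI resembles a type I receptor without a kinase domain and holds down TGF-beta and BMP signals at the membrane. Its probe (accession NM_012342) read 11490 and 11781 in the control and 6270 and 6451 in cl-sh3. Both cl-sh3 readings were below both control readings, all of them technical readings of 1 RNA pair. The log2 ratio was -0.87 in each hybridization, so that the dye made almost no difference. BAMBI ranked 214th from the lowest of all genes, or within 1.32%. The SKI and SKIL proteins are co-repressors that bind SMADs on DNA. SKI had log2 ratios of -0.02 and -0.35 and SKIL had -0.57 and -0.01, so each was close to 0 in 1 of the hybridizations. The ubiquitin ligases SMURF1 (0.11 and 0.26) and SMURF2 (-0.03 and 0.19), which mark SMADs and receptors for degradation, had means of 0.18 and 0.08.

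The extracellular antagonists and latency proteins showed no difference of 1.5-fold in either hybridization, and the median log2 ratio of these 6 genes was 0.01. Noggin (NOG) and gremlin (GREM1), which trap BMPs, had means of -0.02 and -0.06. Follistatin (FST), which traps activins, had a mean of 0.11. The latent TGF-beta binding proteins LTBP1, LTBP2 and LTBP3, which hold TGF-beta in the matrix, had means of -0.16, 0.04 and 0.17. Their ratios in single hybridizations ranged from -0.30 for LTBP1 to 0.35 for LTBP3.

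The ID genes, which are classical direct targets of BMP signals, differed among themselves. Their proteins pair with basic helix-loop-helix factors and keep them from DNA. ID4 (accession NM_001546) read 16790 and 16999 in the control and 9318 and 10410 in cl-sh3. Both cl-sh3 readings were below both control readings, and the log2 ratios of -0.85 and -0.71 gave a mean of -0.78, 313th from the lowest of all genes or within 1.94%. ID1 had log2 ratios of -0.08 and -0.05, ID2 of 0.11 and -0.18, and ID3 of 0.01 in each hybridization. The lower reading of ID4 was thus not seen in the other ID genes, whose brightest probes had means between -0.06 and 0.01. A slightly dimmer ID2 probe had 0.27 and -0.10, with a mean of 0.09. TGFBI, a matrix protein gene named for its induction by TGF-beta, had -0.18 and -0.14.

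**Figure D3:**
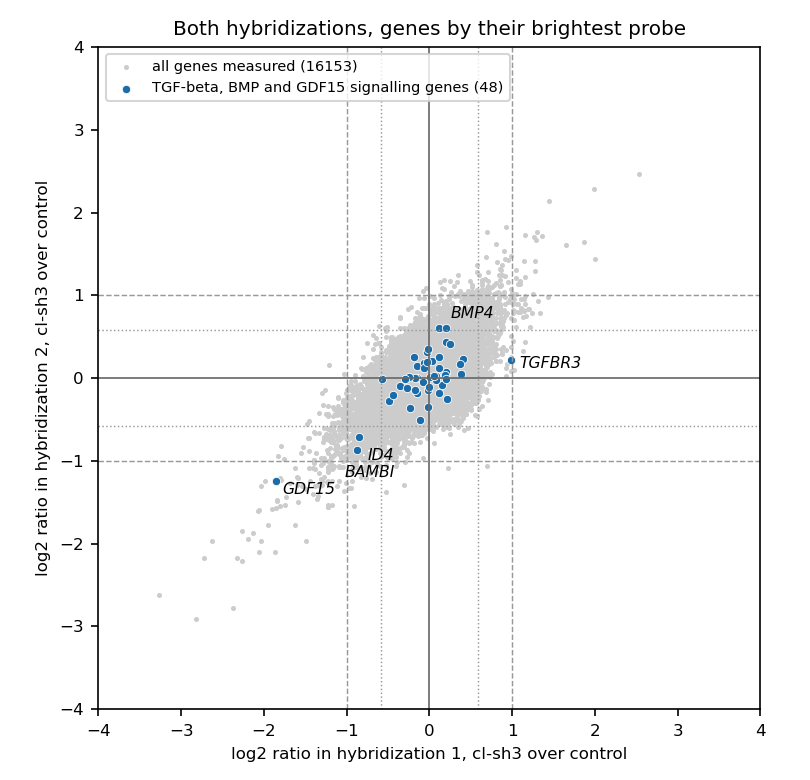
Log2 ratio of each gene in hybridization 1 (horizontal axis) against hybridization 2 (vertical axis), with the 48 signalling genes in blue over all 16153 measured genes in grey, dotted lines at 1.5-fold and dashed lines at 2-fold. Most signalling genes lie in the dense centre, GDF15 lies beyond -1 on both axes, and TGFBR3 and BMP4 are far from 0 on 1 axis only.

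More than 1 probe was kept for 16 of the 48 genes, and none of these was GDF15, BAMBI or ID4, whose values rest on a single probe each. The probes of a gene had means of different sign in 7 of the 16 genes, among them SKI, SMURF1 and TGFBR2. The widest gap was that of BMPR1A, a BMP type I receptor. Its brightest probe had log2 ratios of -0.18 and 0.00, a second had -0.72 and -0.05, and the dimmest had -1.10 and -0.67. The dimmest BMPR1A probe passed 1.5-fold in both hybridizations, as did 837 of 36060 probes, or 2.32%, in the lower direction. No other probe of the 48 genes did so beyond those of GDF15, BAMBI and ID4, and none passed in the higher direction, where 487 probes, or 1.35%, did. For SMAD2, the means of 4 probes ran from -0.61 to -0.04, and for SKI those of 3 probes ran from -0.51 to 0.21. Of the 74 probes for the 48 genes, 72 were kept, and the other probes, for BMP7 and TGFB3, were not well above background.

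**Figure D4:**
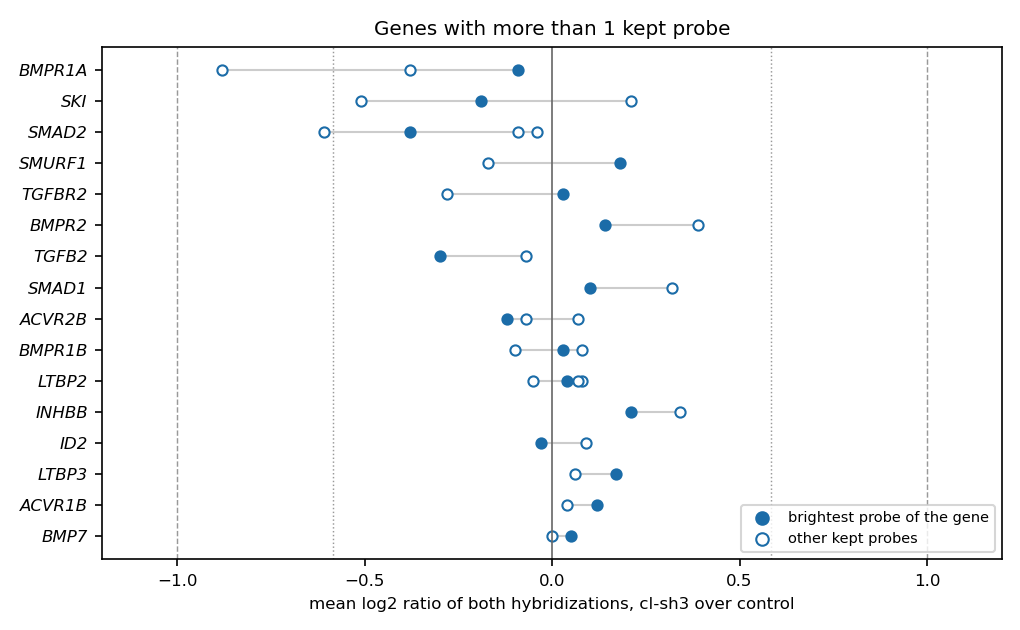
Mean log2 ratio of both hybridizations for every kept probe of the 16 genes with more than 1, with filled circles for the brightest probe of a gene and open circles for the others, dotted lines at 1.5-fold and dashed lines at 2-fold. BMPR1A, SKI and SMAD2 have the widest ranges, and the brightest probe of each lies nearer to 0 than its lowest probe.

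Further genes of the pathway were read from lists of other ligands, receptors and regulators. Of 85 such genes, 76 were measured, with a median log2 ratio of 0.03. None was lower by the 1.5-fold rule and 1 was higher, against 2.61% and 1.60% of all genes. The higher gene was ZFYVE9, which encodes SARA, a membrane anchor that brings SMAD2 and SMAD3 to the receptor. Its log2 ratios were 0.59 and 0.84, and those of a dimmer probe were 0.38 and 0.52. The 16 other ligand genes, the 9 other receptor genes and the 24 other extracellular regulators had 0 genes past the rule.

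Genes known to be induced by TGF-beta moved in both directions. Of 20 listed genes, 18 were measured, and the median log2 ratio was -0.19. By the 1.5-fold rule 5 were lower and 2 were higher, where 2.61% and 1.60% of all genes were. In this list 11 genes (61.1%) were below 0 in both hybridizations and 5 (27.8%) were above 0. The shares over all genes were 28.4% and 30.9%. Past 2-fold were ANGPTL4, an inhibitor of lipoprotein lipase, at -1.30 and -1.29, and TSC22D1, a leucine zipper protein gene, at -1.28 and -1.19. The transcription factor genes SNAI1 (-0.81 and -0.98), JUNB (-0.85 and -0.77) and KLF10 (-0.82 and -0.67) passed 1.5-fold. A dimmer JUNB probe had -0.08 and -0.37 and did not pass. The higher genes were CCN2, a matrix-associated growth factor gene, at 0.95 and 1.16, and TAGLN, an actin-binding protein of smooth muscle, at 0.61 and 1.01. A second TAGLN probe had 0.69 and 1.44. The listed targets of TGF-beta thus did not share a direction. The study listed ANGPTL4, TSC22D1 and CCN2 from these same arrays, so their readings are no independent evidence of direction.

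Of 11 listed BMP target genes, 9 were measured, with a median log2 ratio of -0.03, and SMAD6 and SMAD7 were among them. HEY1, a repressor gene also known as a Notch target, was lower at -1.14 and -0.92, and no other gene of the list passed 1.5-fold. Of all genes, 2.61% were lower by this rule. HEY1 too was listed by the study from these arrays. Regulators known to act on the GDF15 gene were read beside GDF15 itself. Of those reported here, 3 were lower by 2-fold or more in both hybridizations by their brightest probes, where 0.520% of all genes were. They were ATF4 (-1.54 and -1.30), DDIT3 (-2.19 and -1.94) and ATF3 (-1.23 and -1.27). A dimmer ATF4 probe had -0.93 and -0.62, past 1.5-fold but not 2-fold. ATF4, DDIT3 and ATF3 are transcription factors of the cellular stress response, and their lower readings stand beside that of GDF15 in the same RNA pair. Whether they play a part in the GDF15 difference was not tested, and the study itself had named all 3, and GDF15, from these arrays. EGR1 and SP1 did not pass 1.5-fold, with means of -0.38 and -0.02.

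**Figure D5:**
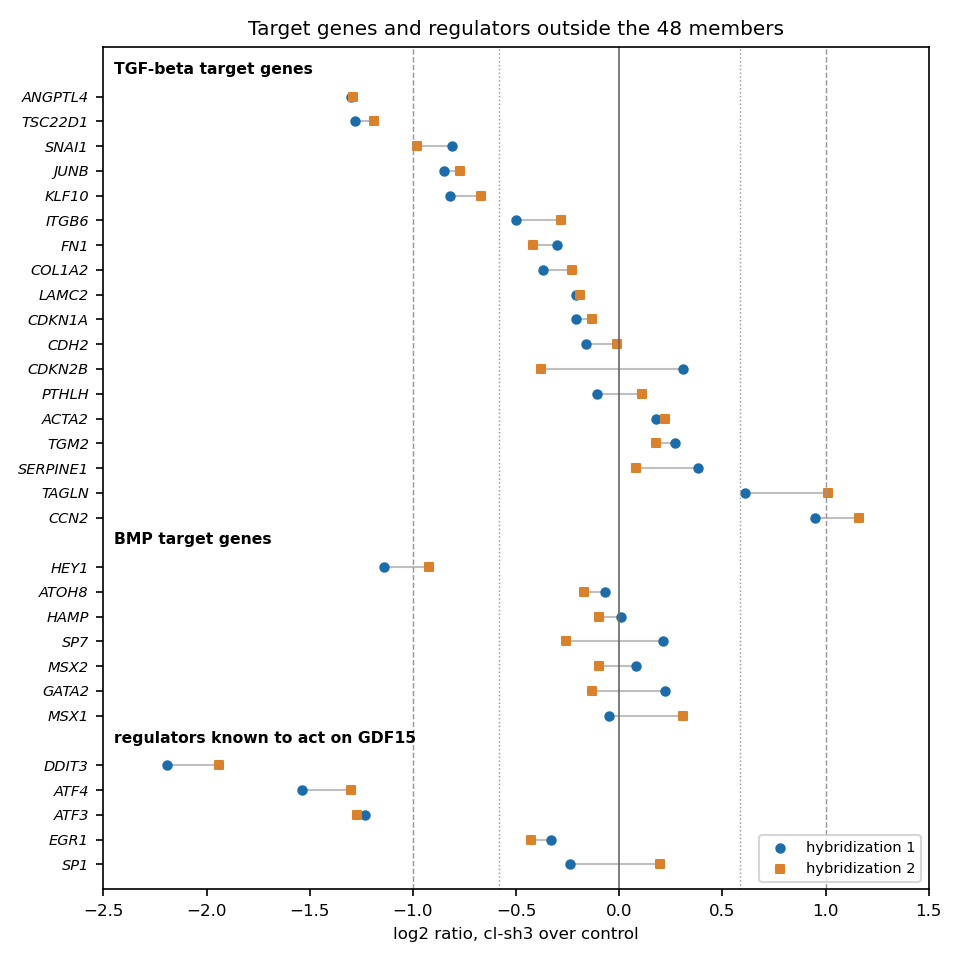
Log2 ratio of cl-sh3 over control for measured TGF-beta target genes, BMP target genes and the reported regulators of GDF15 that are not among the 48 genes, as circles for hybridization 1 and squares for hybridization 2, with dotted lines at 1.5-fold and dashed lines at 2-fold. TGF-beta targets lie on both sides of 0, HEY1 stands apart among the BMP targets, and DDIT3, ATF4 and ATF3 lie beyond -1 in both hybridizations.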

How the data were processed

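RNA of cl-sh3 and of the control clone was hybridized on 2 dye-reversed arrays. The authors deposited the unnormalized median pixel intensity of each spot and of its local background, the scanner software's flags, and its log10 ratio of Cy5 over Cy3, which is background-corrected and dye-normalized. The deposited table of log10 ratios equalled the software's to within 0.00245 and 0.005. The file headers name Feature Extraction 10.5.1.1 and the submitters' processing notes name Agilent Feature Extraction 8.5.1.1. The plan had not named median pixels, which are what the files hold.

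Intensities were corrected with normexp (offset 50), which draws dim ratios towards 0. Control spots were then removed, as were 153 and 144 spots flagged as outliers, and loess normalization was run within arrays in limma 3.58.1 (R 4.3.3, data.table version 1.17.8). The sign of hybridization 2 was turned so that log2 ratios give cl-sh3 over control, and spots of a probe were averaged. The intensities printed and plotted for each RNA were taken after a further step, Aquantile between arrays. Comparisons of readings from different hybridizations thus rest on that step. The main log2 ratios did not use it. With it, GDF15 stayed at -1.56, BAMBI at -0.87 and ID4 at -0.78. A probe was kept (36065 of 41000, 88.0%) when at least 1 RNA was above background in at least 50% of its spots in both hybridizations. Only the brightest kept probe stood for a gene. No test was made with 1 replicate. The number of arrays limits the technical precision, and the single RNA pair gives no measure of biological spread. The pipeline was tested on simulated data. Tables and figures used Python 3.11.15, numpy 2.4.6, pandas 2.3.3 and matplotlib 3.10.9.

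The files pair no gene symbols with probes. Of 32890 accessions, 19228 were RefSeq accessions, and 18024 of these were named through the RefSeq table of GRCh38.p14. The RUNX2 accession NM_004348 was named through the study's supplementary gene list. The arrays were annotated on another build, so no coordinates of probes are given. Protein and probe sequences were not used here.

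The 48 genes and the other lists were chosen with earlier results of these data known, and several of the genes named, GDF15 and RUNX2 among them, were listed by the study from these arrays. By the rule for names, any of the 48 genes, RUNX2, and genes of the other lists past 1.5-fold in both hybridizations are named. EGR1 and SP1 are named outside this rule, beside the regulators of GDF15 that passed, and 1 further gene of that list is not reported here. Alternatives tried were an offset of 0, uncorrected background, centring on the median, Aquantile between arrays, keeping flagged spots, dropping the detection filter or asking it of both RNAs, the software's ratios, the deposited table, single hybridizations, fold rules on the mean ratio, and averaging a gene's probes.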

Additional observations from a re-analysis of the deposited data

How the results depend on the processing

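GDF15 alone was past 2-fold lower, and GDF15, BAMBI and ID4 were past 1.5-fold lower, under each of the 13 alternatives. GDF15 ranged from -1.86 to -1.25, BAMBI from -0.87 to -0.79 and ID4 from -0.85 to -0.69. No gene of the 48 was past 2-fold higher. The count past 1.5-fold higher, 0 in the report, became 1 (BMP4) with the scanner software's log ratios and 1 with the deposited table, and 1 (TGFBR3) when the mean of both hybridizations had to pass. With 1 hybridization left out it was 1 to 2 (TGFBR3 in hybridization 1, BMP2 and BMP4 in hybridization 2). The median of the 48 genes was 0.06 with median centring, 0.00 over the 45 genes with both RNAs above background, 0.04 with the software's ratios and with the deposited table, and -0.02 to 0.00 with 1 hybridization left out. RUNX2 was at -0.63 as the mean of its 3 probes. The causes of these shifts were not tested. Each log2 ratio already pairs the RNAs of both clones on 1 array. No test across pairs was possible, because both hybridizations hold the same pair of RNAs. For BMP4, ENG and FST the control RNA was not above background in hybridization 2, which limits what can be read from their ratios.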
